A study of Arabidopsis thaliana with 6 samples.

Results

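Pol IV-dependent CHH methylation just upstream of genes was described in 754 windows of 300 bp, assigned by the nearest start to 695 protein-coding genes of Arabidopsis thaliana. A window was a member when full-length NRPD1 plants exceeded nrpd1-3 plants by 10 percentage points or more of CHH methylation, and when its midpoint lay in no annotated gene or pseudogene but within 500 bp upstream of a protein-coding gene. CHH is a cytosine followed by 2 bases that are not G. The 754 windows were 5.93% of the 12711 windows tested at this position and 11.1% of the 6805 Pol IV-dependent windows, themselves 2.44% of the 278507 windows tested in the genome. Of the 695 genes, 636 were assigned 1 such window and 59 were assigned 2. A further gene start lay within 500 bp of 31 windows, and these second genes are not counted in the 695.

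Pol IV is a plant RNA polymerase whose largest subunit is NRPD1. Its transcripts are copied into double-stranded RNA by RDR2 and cut by DCL3 into small RNAs, which guide the methyltransferase DRM2 to matching DNA. CHH methylation has no methylated partner on the other strand after DNA replication, so it must be laid down anew, and it is mostly found at transposons and repeats. Short stretches of it beside genes are known in plants.

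Bisulfite turns unmethylated cytosines into a base that is read as T and leaves methylated ones as C, and whole-genome sequencing after this treatment was available for 3 groups of 2 libraries each. The Col-0 background and the nrpd1-3 T-DNA insertion, a null allele of the NRPD1 gene, were common to the plants of all groups. The groups were nrpd1-3 without a transgene, nrpd1-3 with full-length NRPD1 (NRPD1FL), and nrpd1-3 with NRPD1 cut short at its C-terminal domain, which holds the DeCL domain (labelled nrpd1dDeCL, here NRPD1ΔCTD). DNA came from the above-ground parts of 2.5-week-old soil-grown plants under 16 h of light and 8 h of dark, the transgenic lines having been selected with the herbicide Basta. Both transgenes were FLAG-tagged and derive from a genomic clone with the gene's own promoter. The methods speak of biological replicates, but whether the 2 libraries of a group came from separate plants or transgenic lines was not stated. The p-values of tests over libraries thus measure only the spread between these libraries. Those of logistic regression, a test on read counts, do not measure that spread. The full-length samples name NRPE1 in their titles and NRPD1 in their transgene field, and the transgene field was followed. Wild type plants were not analysed here, so NRPD1FL is the upper reference throughout. The libraries held 192342372 to 225676590 reads over CHH cytosines, or 15.2 to 16.3 reads per listed cytosine, and a cytosine with fewer than 5 reads was not listed.

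The sequences of 6 windows are shown because they span the range of outcomes described below. They are a pair of windows in which NRPD1ΔCTD stayed far below NRPD1FL, a pair in which the libraries of these groups overlapped, and the windows before SDC and DCL3, members of the gene lists used below. Each is read 5′ to 3′ in the direction of its gene from the TAIR10.1 reference (RefSeq). Capitals mark CHH cytosines, written as G when the cytosine is on the other strand, at which pooled NRPD1FL exceeded nrpd1-3 by 20 points or more with at least 10 reads in each of these groups. None of the 6 windows overlaps an annotated gene. They lie at chr1:21640501-21640800 (ZW2, plus strand), chr2:11076001-11076300 (AT2G25970, minus strand), chr5:13466401-13466700 (AT5G35200, minus strand), chr2:6350701-6351000 (AT2G14765, plus strand), chr2:7681801-7682100 (SDC, plus strand) and chr3:15753001-15753300 (DCL3, plus strand).
ZW2: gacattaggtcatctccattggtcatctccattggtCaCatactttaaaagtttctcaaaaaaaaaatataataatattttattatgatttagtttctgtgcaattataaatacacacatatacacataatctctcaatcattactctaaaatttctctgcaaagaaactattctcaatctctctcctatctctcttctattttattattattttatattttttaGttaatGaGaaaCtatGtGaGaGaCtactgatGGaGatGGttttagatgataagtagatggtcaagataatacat
AT2G25970: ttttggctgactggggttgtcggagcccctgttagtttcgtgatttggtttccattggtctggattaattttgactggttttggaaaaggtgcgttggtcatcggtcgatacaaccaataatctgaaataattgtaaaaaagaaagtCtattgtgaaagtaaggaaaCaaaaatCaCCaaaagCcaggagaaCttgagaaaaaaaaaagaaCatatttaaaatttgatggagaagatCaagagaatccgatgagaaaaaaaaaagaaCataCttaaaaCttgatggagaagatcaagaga
AT5G35200: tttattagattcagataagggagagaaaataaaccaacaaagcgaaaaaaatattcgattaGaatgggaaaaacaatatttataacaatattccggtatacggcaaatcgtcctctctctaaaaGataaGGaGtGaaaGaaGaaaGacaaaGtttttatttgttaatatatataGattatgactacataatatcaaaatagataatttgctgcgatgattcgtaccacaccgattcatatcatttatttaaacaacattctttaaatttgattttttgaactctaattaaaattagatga
AT2G14765: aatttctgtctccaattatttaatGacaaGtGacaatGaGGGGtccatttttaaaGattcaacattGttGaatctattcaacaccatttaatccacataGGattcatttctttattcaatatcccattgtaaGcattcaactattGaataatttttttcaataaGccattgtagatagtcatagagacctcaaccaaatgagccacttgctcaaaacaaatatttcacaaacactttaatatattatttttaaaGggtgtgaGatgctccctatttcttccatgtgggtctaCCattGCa
SDC: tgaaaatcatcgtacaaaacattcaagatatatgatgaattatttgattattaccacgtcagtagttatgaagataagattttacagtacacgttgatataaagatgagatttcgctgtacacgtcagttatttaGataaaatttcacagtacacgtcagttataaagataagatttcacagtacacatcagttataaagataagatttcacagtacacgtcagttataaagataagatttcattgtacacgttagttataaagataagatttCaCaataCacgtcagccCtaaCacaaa
DCL3: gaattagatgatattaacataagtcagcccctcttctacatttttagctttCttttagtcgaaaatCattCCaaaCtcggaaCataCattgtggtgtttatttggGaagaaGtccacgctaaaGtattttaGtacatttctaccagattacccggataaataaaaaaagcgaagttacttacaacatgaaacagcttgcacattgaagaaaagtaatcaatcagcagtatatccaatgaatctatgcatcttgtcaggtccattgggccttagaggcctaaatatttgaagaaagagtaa

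The marked cytosines were unevenly placed. ZW2 had 16 marked cytosines among 18 with enough reads, 12 of them on the antisense strand and grouped in the gene-side part of the window. AT2G25970 had 12 of 21, all on the sense strand, and AT5G35200 had 11 of 20, all on the antisense strand. AT2G14765 had 22 of 31, 19 of them antisense. DCL3 had 11 of 31 and SDC only 6 of 22. How the cytosines with enough reads were spread over the strands and parts of each window was not examined. A lack of marks on a strand or in a part thus does not show a lack of methylation there. The window before SDC, an F-box-like gene known as a target of DNA methylation through tandem repeats in its promoter, held the word AAGATAAGATTT, the longest with so many copies, 5 times on the gene's strand and 0 times on the other, the second copy 95 bp after the first and each later copy 32 bp after the one before. That word occurred on either strand in 9 of 12711 upstream windows tested (0.0708%), and 5 or more copies occurred in 1. No marked cytosine lay inside a copy of the word, and all but 1 of the marks followed the last copy on the gene side. The word holds no C, so only cytosines of the other strand could be marked inside a copy. Whether any of these had enough reads was not examined, so the lack of marks there does not show a lack of methylation.

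CHH methylation of the members was low in nrpd1-3, highest in NRPD1FL and intermediate in NRPD1ΔCTD. Over all 754 windows, 5.41% and 5.16% of reads at CHH cytosines were methylated in the nrpd1-3 libraries, 22.5% and 21.6% in the NRPD1ΔCTD libraries, and 30.1% and 29.97% in the NRPD1FL libraries. The groups did not overlap. The mean of nrpd1-3 was 5.28% ± 0.176, that of NRPD1ΔCTD 22.1% ± 0.639 and that of NRPD1FL 30.02% ± 0.0696, each with its SD over 2 libraries. The rule chose the windows by NRPD1FL minus nrpd1-3, so the difference of 24.7 points between these groups is a description. NRPD1ΔCTD stood 16.8 points above nrpd1-3, and NRPD1ΔCTD minus NRPD1FL was -7.96 points. Each difference shares a group with the rule. The exact two-sided permutation test over libraries gave p = 0.333 for each of them, the smallest p that 2 against 2 libraries allow, so no such test here can pass 0.05. In the other 11957 upstream windows tested, the level was 3.05% ± 0.386 for nrpd1-3, 3.19% ± 0.108 for NRPD1ΔCTD and 3.34% ± 0.109 for NRPD1FL (SD, n = 2 each).

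**Figure D1:**
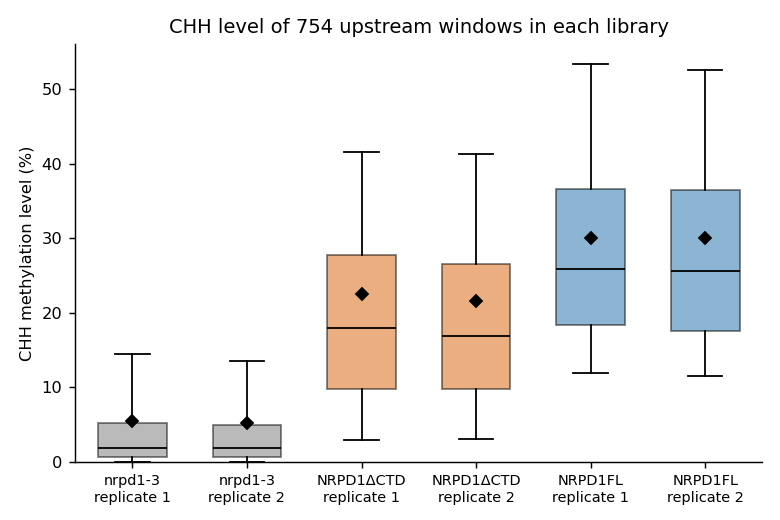
CHH methylation level (percent of reads) of the 754 upstream windows in each of the 6 libraries. Boxes span the quartiles with the median as a line, whiskers reach the 5th and 95th percentiles, and diamonds give the level over all reads. The 2 libraries of a group sit together, with diamonds at 5.41% and 5.16% in nrpd1-3, 22.5% and 21.6% with NRPD1ΔCTD, and 30.1% and 29.97% with NRPD1FL.

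Single windows varied widely around these levels. In nrpd1-3 the median window had 1.88% and 1.905%, 103 of 754 windows had no methylated read in each library, and 9 windows reached 20% or more. In NRPD1FL the median window had 25.8% and 25.5%, with a range from 5.33% to 80.2% in replicate 1 and from 2.34% to 81.4% in replicate 2. NRPD1ΔCTD had medians of 18.0% and 16.8% and ranged from 0% to 70.6% and 73.3%. The median difference that chose the windows was 21.1 points, 404 windows reached 20 points and 99 reached 40 points. Members just inside the limit were the windows before AT5G63280 (10.0131 points), RH39 (10.0506) and AT1G19160 (10.0707), and the windows just outside it lay before AT2G37120 (9.99365), AT4G16540 (9.97479) and AT3G44330 (9.90753).

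Windows were also chosen on 1 library per group and measured in the other, so that the measured values had no part in the choice. Windows chosen on replicate 1 numbered 745 and had, in replicate 2, 5.47% in nrpd1-3 and 29.6% in NRPD1FL. NRPD1ΔCTD had 22.4% and 21.5% over them. Of these, 659 (88.5%) again reached 10 points. The reverse choice gave 747 windows with 5.59% and 29.997%, with NRPD1ΔCTD at 22.6% and 21.7%, and 659 (88.2%) again reached 10 points.

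NRPD1ΔCTD regained most but not all of the lost methylation in these windows. Regained share here is NRPD1ΔCTD minus nrpd1-3 as a percent of NRPD1FL minus nrpd1-3. It was 69.6% and 66.0% in the NRPD1ΔCTD libraries, or 67.8% ± 2.58 (SD, n = 2), and it was 70.4% and 66.7%, or 69.8% and 66.0%, in windows whose nrpd1-3 and NRPD1FL values came from libraries outside the choice. Among windows the share spread from -11.2% to 147%, with quartiles of 46.5% and 77.4% around a median of 63.1%. It was below 25% in 65 windows, from 25 to 50% in 159, from 50 to 75% in 306, from 75 to 100% in 198 and at 100% or more in 26. The 26 windows with full return were 61.5% pericentromeric, against 29.0% of all members, and had a median difference of 15.8 points against 21.1.

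By logistic regression of methylated and unmethylated reads on group, with Benjamini-Hochberg adjustment over all 278507 windows (adjusted p of 0.01 or less and 10 points or more), 457 of the 754 windows (60.6%) were called higher in NRPD1ΔCTD than in nrpd1-3, against 1.5% of all windows tested. In the same test 249 (33.0%) were called lower in NRPD1ΔCTD than in NRPD1FL, against 0.541% of all windows. None was called lower than nrpd1-3 (0.00826% of all windows) or higher than NRPD1FL (0.014% of all windows). Since members were chosen for high NRPD1FL and low nrpd1-3, higher shares than the background are partly set by the choice. Together, 303 windows were called higher than nrpd1-3 and not lower than NRPD1FL, 154 were called on both sides, 95 were called lower than NRPD1FL only, and 202 were called in neither comparison. In 717 windows both NRPD1ΔCTD libraries lay above both nrpd1-3 libraries (18% of all windows tested), in 616 both NRPD1FL libraries lay above both NRPD1ΔCTD libraries (17.7% of all windows), and in 6 the order was the opposite (14.9% of all windows). The logistic test treats reads as independent. With limma on arcsine square root levels, which uses the spread between libraries, 0 members were called in either comparison, the smallest adjusted p among members being 0.107 against nrpd1-3 and 0.293 against NRPD1FL. At an unadjusted p under 0.05 and 10 points, limma counted 444 members higher than nrpd1-3 (background 1.45%) and 214 lower than NRPD1FL (background 0.46%). A quasi-binomial F test also called 0 members, and at the same unadjusted limits counted 389 (background 1.18%) and 127 (background 0.265%). With the replicate number as a block, logistic regression called 457 (background 1.5%) and 248 (background 0.539%).

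**Figure D2:**
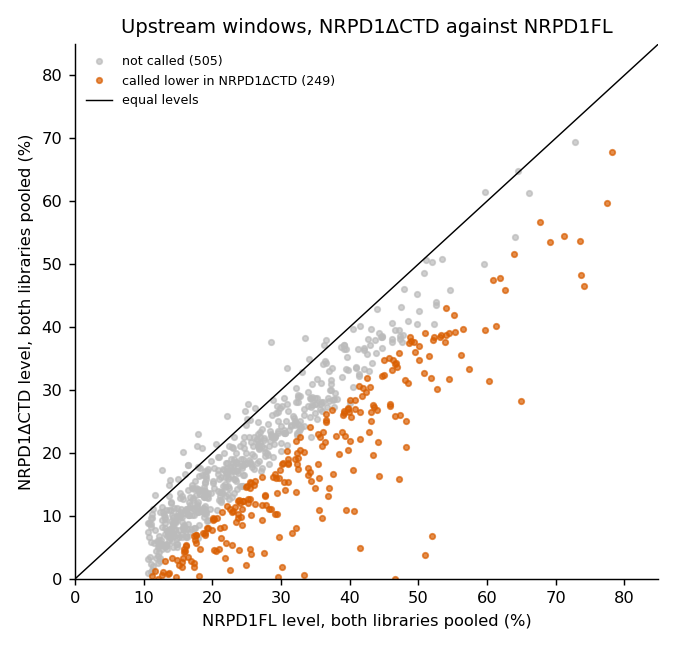
CHH level of each of the 754 upstream windows in NRPD1ΔCTD (y axis, percent) against NRPD1FL (x axis, percent), with the reads of the 2 libraries of a group pooled. Orange points are the 249 windows called lower in NRPD1ΔCTD by logistic regression, and the line marks equal levels. Most points lie below the line.

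The members called lower were more often windows with a large loss. Of 350 windows whose NRPD1FL minus nrpd1-3 difference was below 20 points, 14% were called lower in NRPD1ΔCTD, against 43.0% of 305 windows from 20 to 40 points and 69.7% of 99 windows at 40 points or more. The regained share, in contrast, was larger where the difference was larger, at 61.3% ± 1.86, 70.1% ± 2.53 and 74.1% ± 2.21 (SD, n = 2 libraries) in these classes. The share and the classes use the same nrpd1-3 and NRPD1FL values, so these are descriptions. A call also needed a drop of 10 points or more, which is a larger part of a small difference than of a large one. The rise in calls with the difference is thus partly set by this limit, and how far was not tested.

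Reads over the members were not equally deep in the groups. Reads per listed cytosine, relative to all windows tested in the same library, were 0.823 and 0.813 for nrpd1-3, 1.03 and 0.9997 for NRPD1ΔCTD, and 1.10 and 1.08 for NRPD1FL. Over the other upstream windows this ratio was 0.776 to 0.784 in all 6 libraries. The median member had 26 listed cytosines in nrpd1-3, 36 in NRPD1ΔCTD and 41 in NRPD1FL, on medians of 290.5, 476 and 611 reads. Depth thus moved with the levels, and its part in them was not tested. Over the 17129 cytosines of the members that all 6 libraries list, levels were 5.52% ± 0.164 in nrpd1-3, 19.6% ± 0.506 in NRPD1ΔCTD and 26.9% ± 0.0612 in NRPD1FL (SD, n = 2 each), the same order with smaller differences. Of 662 members with at least 10 such cytosines, 567 (85.6%) again differed by 10 points or more. The window before AT1G32430 was one that did not, with 12.6% in NRPD1FL over all listed cytosines and 0.703% over the shared ones.

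The members' genes were named by rank, and the 8 windows with the largest difference and at least 20 cytosines in every library came first. The window before SGP2, a small GTP-binding protein, at chr3:7644001-7644300 had 0% and 3.08% in nrpd1-3, 62.1% and 45.7% with NRPD1ΔCTD and 78.8% and 69.0% with NRPD1FL. The libraries list mostly different cytosines there, only 2 being shared by all 6. The window before ZW2 had 0.485% and 0% in nrpd1-3, 28.0% and 28.4% with NRPD1ΔCTD and 61.7% and 69.1% with NRPD1FL. The NRPD1ΔCTD and NRPD1FL libraries were far apart here, and the 17 shared cytosines gave 33.2% ± 1.11 against 72.6% ± 10.8 (SD, n = 2). The window at chr3:23108701-23109000 before AT3G62470, a pentatricopeptide repeat protein gene, kept 14.6% and 11.8% in nrpd1-3 and had 52.1% and 42.0% in NRPD1ΔCTD and 72.3% and 75.8% in NRPD1FL. It was among the deepest of these windows, with 1051 to 1496 reads per library. Before FRO7, a ferric reductase of the iron supply to chloroplasts, the levels at chr5:20208901-20209200 were 0.863% and 0.388%, then 39.1% and 40.2%, then 58.7% and 60.7%. Before ATAF2, a NAC transcription factor, at chr5:2860501-2860800 they were 1.08% and 0.581%, 38.5% and 39.3%, and 59.5% and 48.9%. The remaining 3, before AT1G58150, AT1G18910 and AT3G13225, had NRPD1FL means of 69.2%, 67.9% and 57.5% and NRPD1ΔCTD means of 53.5%, 56.6% and 32.8%. All 8 lay in chromosome arms and were called lower in NRPD1ΔCTD than in NRPD1FL and higher than in nrpd1-3.

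The 6 that stayed lowest against NRPD1FL, with a difference of 20 points or more, lay before ZW2, AT3G49030, AT2G25970, AT3G62470, PAL3 and AT4G00163. Before AT2G25970, a KH-domain protein gene, nrpd1-3 had 0 methylated reads of 226 and of 252, which allow levels up to 1.33% and 1.19%, NRPD1ΔCTD had 15.9% and 16.6%, and NRPD1FL had 46.0% and 42.9%. Before AT3G49030, an F-box gene, at chr3:18172501-18172800 the levels were 1.88% and 1.45% in nrpd1-3, 15.2% and 16.5% with NRPD1ΔCTD, and 49.9% and 44.1% with NRPD1FL. The groups were fully apart in both windows. Before PAL3, a phenylalanine ammonia-lyase of the entry to phenylpropanoid synthesis, at chr5:1160101-1160400 NRPD1ΔCTD had 12.0% and 4.23%, against 3.17% and 1.94% in nrpd1-3 and 28.5% and 34.4% in NRPD1FL. It was not called higher than nrpd1-3 (adjusted p = 0.0129, logistic regression, read counts pooled over 2 libraries a group). The 2 NRPD1ΔCTD libraries also disagreed before AT4G00163, at chr4:68701-69000, with 1.08% and 12.4% against 29.8% and 34.4% in NRPD1FL, and over its 8 shared cytosines NRPD1FL had 5.38% ± 2.64 and NRPD1ΔCTD 0.975% ± 0.0937 (SD, n = 2).

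Other windows of this kind were picked after their values were seen, because their genes are well described. Before GH9C3, a cell wall endoglucanase, at chr4:6751801-6752100 nrpd1-3 had 0 methylated reads of 91 and of 107, NRPD1ΔCTD had 5.26% and 2.56%, and NRPD1FL had 45.7% and 57.0%. The 95% Wilson intervals were 2.57 to 10.5% and 1.002 to 6.41% in NRPD1ΔCTD and 40.5 to 51.0% and 51.3 to 62.5% in NRPD1FL, and they cover counting error only. Before RBL3, a rhomboid-like protease, at chr5:2276101-2276400 NRPD1ΔCTD had 0.397% and 0.791%, nrpd1-3 had 2.77% and 0%, and NRPD1FL had 34.0% and 32.9%. Over its 15 cytosines listed in all 6 libraries NRPD1FL had only 10.8% ± 1.32 (SD, n = 2). Before FaTA, a fatty acyl-ACP thioesterase, at chr3:9148801-9149100 NRPD1ΔCTD had 1.22% and 2.62%, on either side of nrpd1-3 at 1.42% and 1.43%, and NRPD1FL had 26.4% and 34.0%. CRK40, a cysteine-rich receptor-like kinase gene, had the same order at chr4:2288401-2288700, with 3.67% and 3.98% in nrpd1-3, 3.63% and 5.15% with NRPD1ΔCTD, and 30.2% and 23.7% with NRPD1FL.

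The opposite outcome, NRPD1ΔCTD at the level of NRPD1FL, was seen before AT5G35200, AT2G14765, AT3G33528, AT4G04260, AT4G08260 and AT3G45680, 5 of which were pericentromeric. AT5G35200 encodes an ENTH/ANTH/VHS protein, a family with roles in vesicle traffic. Before it, nrpd1-3 had 0 methylated reads of 247 and of 241, NRPD1ΔCTD had 24.8% and 27.5%, and NRPD1FL had 30.6% and 15.2%. The NRPD1FL libraries lay on either side of both NRPD1ΔCTD libraries, so the sign of the difference rests on 1 library. AT2G14765 had 0.703% and 3.01% in nrpd1-3, 40.9% and 35.4% with NRPD1ΔCTD, and 34.3% and 39.2% with NRPD1FL. In all 6 windows the libraries of these groups overlapped, none was called between NRPD1ΔCTD and NRPD1FL, and all were called higher in NRPD1ΔCTD than in nrpd1-3.

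**Figure D3:**
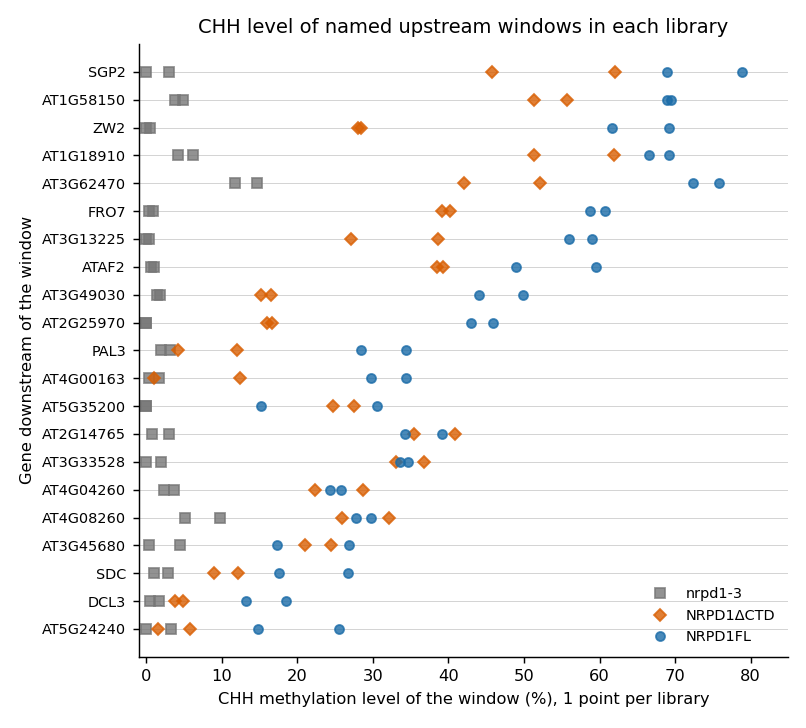
CHH methylation level (percent) of the windows before 21 named genes, 1 point per library. The top 8 rows are the largest differences, the next 4 are further windows with the lowest NRPD1ΔCTD against NRPD1FL, the next 6 are those with the highest, and the last 3 are members from the gene lists. NRPD1ΔCTD lies between the other groups before ZW2 and FRO7, near nrpd1-3 before DCL3 and AT5G24240, and among the NRPD1FL points before AT2G14765.

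In a list of 24 genes of RNA-directed DNA methylation, 11 had an upstream window tested and 1 had a member, where 6.55% of all genes with a tested window had one. That gene was DCL3. The window, 237 bp before its start, had 0.489% and 1.73% in nrpd1-3, 3.77% and 4.90% with NRPD1ΔCTD, and 18.4% and 13.1% with NRPD1FL. NRPD1ΔCTD was called lower than NRPD1FL (adjusted p = 2.36e-11, logistic regression) and was not called higher than nrpd1-3, from which it differed by less than 10 points. The other 10 genes, among them NRPE1, AGO4 and DRM1, had largest NRPD1FL minus nrpd1-3 differences between -0.793 and 1.304 points. Of 10 genes of methylation maintenance and demethylation, 6 had a tested window and 0 had a member, the largest difference being 1.44 points before the DNA demethylase gene ROS1.

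Of 13 genes listed as imprinted or silenced, 4 had a tested window and 2 had a member. Before SDC, 212 bp from its start, nrpd1-3 had 1.04% and 2.83%, NRPD1ΔCTD had 12.1% and 8.93%, and NRPD1FL had 26.7% and 17.5%. Before AT5G24240 (ERT9 in the list), a phosphatidylinositol 4-kinase gamma-like gene, at chr5:8234101-8234400 the levels were 3.24% and 0%, 1.56% and 5.76%, and 25.5% and 14.8%. Over its 17 cytosines listed in all 6 libraries, nrpd1-3 had 2.38% ± 3.37, NRPD1ΔCTD 1.15% ± 1.02 and NRPD1FL only 9.20% ± 1.88 (SD, n = 2 each), less than 10 points apart. Over all listed cytosines both windows were called lower in NRPD1ΔCTD than in NRPD1FL. The listed genes PHE1 and FLC had tested windows with differences of -0.0212 and 0.364 points.

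Genes outside the lists that act in RNA silencing or bind methylated DNA were found on reading the members' names, after their values were known. RDR1, an RNA-dependent RNA polymerase of antiviral defence, had 2 windows. At chr1:5098501-5098800, 380 bp from its start, the levels were 5.36% and 6.62% in nrpd1-3, 27.6% and 28.5% with NRPD1ΔCTD and 33.4% and 31.1% with NRPD1FL, on 951 to 2367 reads. At chr1:5098201-5098500, 80 bp from the start, the levels were 0% and 1.45%, 29.7% and 28.5%, and 36.7% and 28.7%. NRPD1ΔCTD was called higher than nrpd1-3 and not lower than NRPD1FL in both. SUVH1, which binds methylated DNA, had the same order of group means, but with NRPD1ΔCTD farther below NRPD1FL. At chr5:1457401-1457700 it had 1.05% and 1.10% in nrpd1-3, 11.1% and 7.65% with NRPD1ΔCTD, and 28.4% and 25.7% with NRPD1FL, and it was called lower than NRPD1FL only.

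Genes of hormone and stress responses were also picked by name. Before ICS2, an isochorismate synthase of salicylic acid synthesis, at chr1:6515101-6515400 the levels were 3.36% and 0.787% in nrpd1-3, 30.2% and 34.2% with NRPD1ΔCTD, and 55.7% and 64.7% with NRPD1FL. Before WRKY22, a defence transcription factor, at chr4:524401-524700 they were 1.87% and 3.04%, 21.6% and 23.8%, and 36.1% and 42.6%. Both were called on both sides, though the ICS2 window had only 76 to 179 reads per library and 3 cytosines listed in all 6 libraries. P5CS1, which makes proline under stress, had no gap between the transgenic groups over all listed cytosines at chr2:16603501-16603800, with 56.1% and 40.8% in NRPD1ΔCTD and 51.7% and 50% in NRPD1FL, but over its 20 shared cytosines it had 53.4% ± 3.40 and 66.2% ± 1.95 (SD, n = 2). DMC1, the meiotic recombinase, had 0.998% and 4.92% in nrpd1-3, 51.1% and 50.4% with NRPD1ΔCTD and 54.8% and 52.0% with NRPD1FL at chr3:8101201-8101500. Its window had 401 and 244 reads in the nrpd1-3 libraries but 3681 to 4360 in the transgenic libraries. HDG10, a homeodomain gene, had 0% and 0.368%, 27.2% and 27.1%, and 39.6% and 39.9% at chr1:12692401-12692700, and the groups were far apart against the gaps between replicates.

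Gene classes were formed from words of the annotated product. Genes annotated as disease resistance proteins, many of which are receptors of pathogen effectors, had a member before 7 of 77 genes with a tested window (9.09%, against 6.55% of all such genes). Their 8 windows had mean levels of 5.83% in nrpd1-3, 31.4% in NRPD1ΔCTD and 40.6% in NRPD1FL, all 8 were called higher in NRPD1ΔCTD than in nrpd1-3 (60.6% of all members and 1.5% of all windows were) and 3 were called lower than in NRPD1FL (33.0% of all members and 0.541% of all windows). AT4G19510 and AT4G19520, with windows at chr4:10633201-10633500 and chr4:10647301-10647600, differed over all listed cytosines. NRPD1ΔCTD had 45.3% and 45.2% against 50.6% and 48.9% in NRPD1FL for the first, and 26.0% and 20.9% against 45.7% and 39.1% for the second. Over cytosines listed in all 6 libraries, NRPD1ΔCTD lay below NRPD1FL in both. The means were 49.6% ± 2.47 against 61.8% ± 4.78, and 16.8% ± 6.66 against 33.9% ± 1.08 (SD, n = 2 each). F-box genes, which encode the substrate adaptors of ubiquitin ligases, had a member before 23 of 326 genes (7.06%), kinases before 30 of 531 (5.65%) and transcription factors before 40 of 598 (6.69%). The share was 8.14% for 103 of 1266 hypothetical or uncharacterized genes, 10% for 7 of 70 transposon-related genes, 5.88% for 6 of 102 cytochrome P450 genes and 5.61% for 11 of 196 transporter genes. No class was tested against the others.

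Pol IV-dependent windows became more frequent with distance from the gene start. Of tested windows with a midpoint 1 to 100 bp upstream, 2.73% were members (exact 95% interval 2.25 to 3.29%), then 4.21% (3.48 to 5.04%), 7.21% (6.16 to 8.38%) and 10.3% (9.02 to 11.7%), and 9.18% (7.90 to 10.6%) at 401 to 500 bp. The neighbouring window on the gene side was Pol IV-dependent in 118 of 530 cases where it could be tested (22.3%), and on the far side in 243 of 491 (49.5%). The sides were unlike, since 310 of the 530 but only 98 of the 491 lay in a gene or pseudogene by midpoint. Of all tested windows, 0.582% of those in genes or pseudogenes and 9.85% of those farther from genes were Pol IV-dependent. Windows were placed by midpoint, and 198 of the 754 members overlapped a gene by 1 bp or more, at most by 226 bp. With a length of 300 bp, windows with a midpoint 1 to 100 bp upstream reach into the gene. The part of this gene sequence in their lower percent was not tested. In the profile from the gene start, NRPD1FL was highest from 300 to 201 bp upstream, at 31.8% ± 0.195, where NRPD1ΔCTD had 23.9% ± 0.856 and nrpd1-3 4.71% ± 0.189. It fell to 10.9% ± 0.308 in the first 100 bp of the gene, with 8.63% ± 0.0947 and 4.65% ± 0.629 in the others (SD, n = 2 each). Farther upstream, from 1500 to 1401 bp, the groups were closer, at 13.1%, 12.1% and 9.23%.

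**Figure D4:**
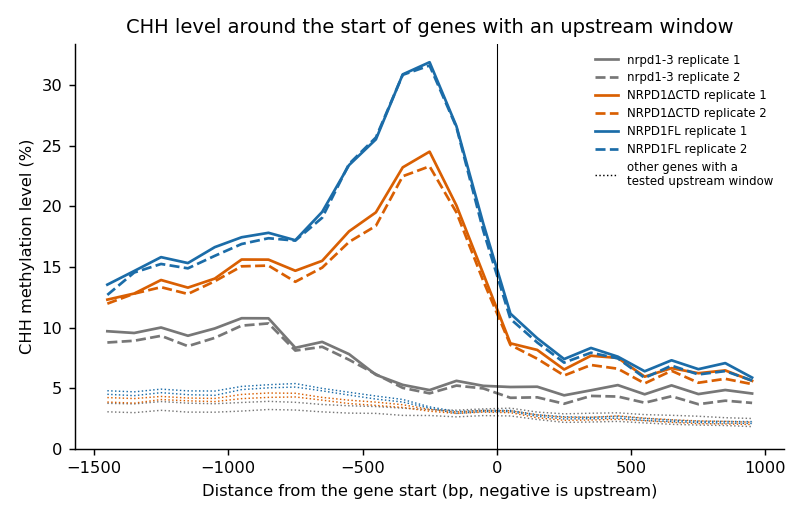
CHH methylation level (percent) in 100 bp steps from 1500 bp upstream to 1000 bp inside the 695 genes, for each library. Dotted lines are the other genes with a tested upstream window. The curves of the groups are farthest apart from 300 to 201 bp upstream, which the choice of windows favours, with NRPD1FL at 31.8% and nrpd1-3 at 4.71%.

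The start of the gene itself was measured without the cytosines used by the rule. Over the first 300 bp of the genes behind the members, with cytosines inside member windows left out, nrpd1-3 had 4.82% and 3.99%, NRPD1ΔCTD had 7.28% and 6.81%, and NRPD1FL had 8.41% and 8.10%. The groups kept the order of the upstream windows without overlap, and each of the 3 differences had p = 0.333 in the exact permutation test, the smallest possible. Over other genes with a tested upstream window, the 3 groups had 2.75% ± 0.464, 2.72% ± 0.155 and 2.79% ± 0.0993 (SD, n = 2 each) and overlapped.

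Methylation levels in the members differed between the strands and with the bases around the cytosine, neither of which the rule used. These levels pool the reads of all members, so the SD over libraries does not cover the spread between windows. In NRPD1FL, cytosines on the sense strand of the gene had 28.5% and 28.5%, and those on the antisense strand had 31.9% and 31.6%. Sense minus antisense was -3.43 and -3.08 points in NRPD1FL, -2.80 and -2.36 points in NRPD1ΔCTD, and 0.0159 and -0.163 points in nrpd1-3. The groups did not overlap in this measure (exact permutation p = 0.333 for each pair, the smallest possible). Over cytosines listed in all 6 libraries and compared within trinucleotides, it was -3.06 ± 0.113 points in NRPD1FL, -2.16 ± 0.369 in NRPD1ΔCTD and -0.468 ± 0.136 in nrpd1-3 (SD, n = 2 each).

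Among the 9 CHH trinucleotides, CTA and CAA were methylated most and CCT and CCC least in NRPD1FL, at 39.98% ± 0.216 and 36.6% ± 0.00497 against 22.2% ± 0.0658 and 22.8% ± 0.252 (SD, n = 2 each). The methylation left in nrpd1-3 was also highest at CTA, 10.3% ± 0.398, and CAA, 10.02% ± 0.333, whereas the other 7 trinucleotides had 1.83 to 4.52%. The regained share was much alike, from 65.4% ± 5.19 at CCT to 69.3% ± 1.40 at CAA. The trinucleotides thus differed far more in level than in regained share.

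**Figure D5:**
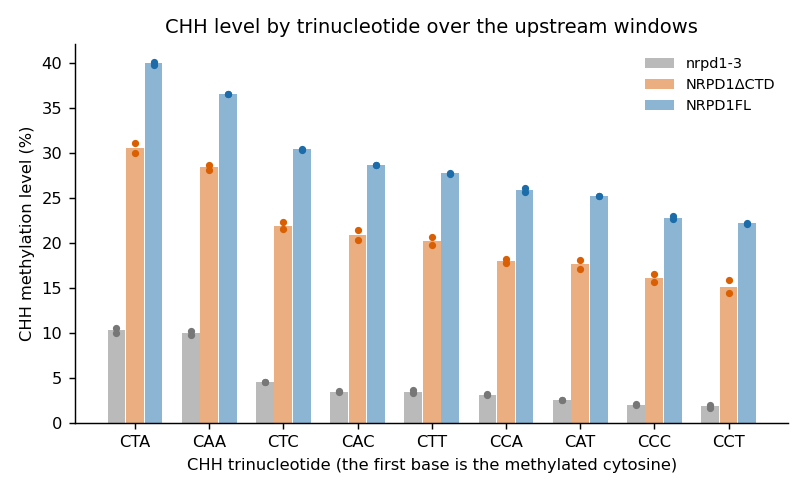
CHH methylation level (percent) over the 754 upstream windows for each of the 9 CHH trinucleotides. Bars are means of 2 libraries and points are the libraries. CTA and CAA are highest in all 3 groups, with 39.98% and 36.6% in NRPD1FL and 10.3% and 10.02% in nrpd1-3.

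The members were poorer in G and C than the other upstream windows and held more repeated sequence. Median GC content was 31.8% against 33.7%. On average 23.7% of the 25-base words of a member occurred elsewhere in the nuclear genome, against 3.23% in other upstream windows and 38.2% in Pol IV-dependent windows more than 500 bp from genes. Only 140 members (18.6%) had no such word, against 78.8% of the others, and 146 (19.4%) had 50% or more, against 1.83%. The G-box CACGTG was in 4.11% of members and 8.77% of other upstream windows, TATAAA in 50.8% and 46.4%, CCAAT in 48.0% and 54.2%, TTGACC in 13.4% and 13.8%, and AAACCCTAA in 3.32% and 3.30%, each searched on both strands.

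The return of methylation differed with repeated sequence. The regained share was 56.8% and 55.0% in the 140 windows with no repeated word, 70.8% and 66.1% in the 468 windows with some, and 72.0% and 70.9% in the 146 windows with 50% or more, by NRPD1ΔCTD library. Both libraries had their lowest value in the windows without repeats. Those windows also had smaller differences, with a median of 15.2 points against 21.3 and 26.3. Among windows with a difference of 20 points or more, the shares were 57.2% ± 0.812 in 47 windows without repeats, 71.3% ± 3.38 in 259 with some and 75.3% ± 0.141 in 98 with 50% or more (SD, n = 2 libraries), and below 20 points they were 56.6% ± 0.787, 62.8% ± 2.63 and 61.3% ± 0.633.

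Compared with other Pol IV-dependent windows, the upstream windows were the more methylated in NRPD1FL. NRPD1FL had 30.02% in the 754 upstream windows, 26.9% ± 0.235 in 474 windows within 500 bp downstream of genes and 26.4% ± 0.199 in 4330 windows farther from genes. The level of upstream minus farther windows was 3.62 ± 0.129 points in NRPD1FL, 1.58 ± 0.406 in NRPD1ΔCTD and -0.621 ± 0.0763 in nrpd1-3 (SD, n = 2 each). NRPD1ΔCTD differed from NRPD1FL by -2.04 points in this gap, with the libraries apart and an exact permutation p of 0.333, the smallest possible. Against downstream windows the gap was 2.73 ± 0.241 points in NRPD1ΔCTD and 3.11 ± 0.166 in NRPD1FL, a difference of -0.381 points (exact permutation p = 0.333, the smallest possible). Within chromosome arms, upstream minus farther windows was 2.88 ± 0.129 points in NRPD1FL, 1.29 ± 0.376 in NRPD1ΔCTD and -0.369 ± 0.0616 in nrpd1-3. Upstream minus downstream windows in arms was 4.10 ± 0.268 in NRPD1FL and 3.46 ± 0.224 in NRPD1ΔCTD (SD, n = 2 each). The regained share of 67.8% ± 2.58 overlapped with 66.5% ± 1.76 downstream and lay below 71.1% ± 1.14 farther away (SD, n = 2). By NRPD1ΔCTD library it was 69.6% and 66.0% upstream, 67.7% and 65.2% downstream, and 71.9% and 70.3% farther away. Upstream minus all other windows outside genes was -2.82 points, and it was -3.83 without NRPD1ΔCTD replicate 1 and -1.69 without replicate 2.

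The share of windows called lower in NRPD1ΔCTD than in NRPD1FL was 33.0% upstream, 28.1% downstream and 19.7% farther away. Among windows of like NRPD1FL minus nrpd1-3 difference, upstream and downstream windows were close, with 14% and 10.2% below 20 points, 43.0% and 43.5% from 20 to 40 points, and 69.7% and 68.6% at 40 points or more. Farther windows had 8.29%, 33.0% and 57.8% in these classes. In chromosome arms the shares called lower upstream, downstream and farther away were 36.1%, 28.6% and 25.2%, and in the pericentromere 25.6%, 27.1% and 14.5%. Within arms, the members' regained share was 68.0% ± 2.52, and within the pericentromere 67.3% ± 2.69 (SD, n = 2) and the libraries of both overlapped. By NRPD1ΔCTD library, farther windows had 71.3% and 69.5% in arms, overlapping with 69.8% and 66.2% in the members. In the pericentromere they had 72.9% and 71.4%, above 69.2% and 65.4% in the members. Over the 5 chromosomes the members' regained share ranged from 65.3% to 71.2%. Of the members, 535 were in arms and 219 (29.0%) in the pericentromere, against 13.5% of all upstream windows tested.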

How the data were processed

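CHH methylation was measured in 6 libraries, 2 each of nrpd1-3, nrpd1dDeCL (NRPD1ΔCTD) and NRPD1FL. Per the labels and the study's methods, the authors used the TruSeq DNA methylation kit, bcl2fastq 2.16.0.10, Cutadapt 1.9.1, Bismark 0.16.1 on TAIR10 with duplicates removed, and methylKit 0.9.5. The deposited coverage is a whole count of reads per cytosine, at least 5. The deposited percent values are the methylated and unmethylated shares of these reads. Unconverted cytosines count as methylated. All listed positions fell on CHH cytosines of TAIR10.1 (100% in each library), whose annotation was used.

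Windows of 300 bp with at least 10 CHH cytosines in each library were tested (278507 of 397157). Levels were methylated over all reads. The authors' window test, logistic regression, was used with Benjamini-Hochberg adjustment in place of SLIM. It treats reads as independent and was tested on simulated data. Permutation tests of group values were exact, two-sided and over libraries. Intervals are 95% Wilson (reads) or exact binomial (windows) and cover counting error only. A count of 0 allows up to 3 reads. Pericentromere limits, with the chromosome 4 knob, followed the study.

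Members, gene lists and tests were chosen with earlier results of these data known. Named windows needed 20 cytosines in every library: the 8 largest differences, and, at 20 points or more, the 6 lowest and 6 highest NRPD1ΔCTD minus NRPD1FL (for the lowest, groups not overlapping), plus list genes. Genes picked after values were seen are so described. Python 3.11.15, NumPy 2.4.6, pandas 2.3.3, SciPy 1.17.1, matplotlib 3.10.9, R 4.3.3 and limma 3.58.1 were used. Alternatives covered coverage, cytosines, thresholds, distance, grid, weighting, tests and each library left out. CG and CHG contexts and small RNAs were not analysed here.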

Additional observations from a re-analysis of the deposited data

How the results depend on the processing

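The order nrpd1-3, NRPD1ΔCTD, NRPD1FL over the upstream windows held under every alternative run. Counts followed the strictness of the rule. Under the main settings, NRPD1ΔCTD was called higher than nrpd1-3 in 1.5% of all windows tested and lower than NRPD1FL in 0.541%. Such backgrounds were not computed for other windows, limits, distances or places, or with libraries left out. The counts for these settings are thus descriptions only. With 10 reads per cytosine there were 362 windows, 215 called higher than nrpd1-3 and 109 lower than NRPD1FL, and with 20 cytosines 424, 246 and 114. A 20 point limit, set for both the choice and the calls, gave 404, 216 and 42. With calls at 10 points, 43.0% of members from 20 to 40 points and 69.7% at 40 points or more were called lower. A reach of 200 bp gave 223, 133 and 72, and a reach of 1000 bp 1542, 954 and 468. The pericentromere alone gave 124 and 56 calls. limma and a quasi-binomial F test each called 0 and 0. NRPD1FL minus nrpd1-3 became 23.7 points with 10 reads, 23.1 with 20 cytosines, 33.6 with the 20 point limit, 22.9 within 200 bp and 24.1 within 1000 bp. It was 25.1 with the grid shifted by 150 bp, 22.6 with windows chosen over shared cytosines, 26.2 in arms, 21.4 in the pericentromere, and 24.1 and 24.4 in held-out libraries. Leaving out each library gave 24.4 to 24.9 points, 742 to 811 windows and regained shares of 65.9 to 69.6%. In these runs 451 to 508 windows were called higher than nrpd1-3 and 247 to 275 lower than NRPD1FL. The regained share was 71.2% with the 20 point limit and 63.9% with windows weighted equally. Upstream minus other windows in regained share ranged from -3.83 to -1.69 points without single libraries, and held-out windows could lose only NRPD1ΔCTD libraries (66.3 and 70.1%).

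Across windows, the deviations of same-numbered libraries were uncorrelated (-0.00353 to -0.00127 over all windows). A shift common to all windows does not enter such a correlation, and the level over all windows was higher in replicate 1 than in replicate 2 in each group (7.04 and 6.25%, 7.23 and 6.84%, 7.35 and 7.03%). The numbers were not taken as a pairing, and with the replicate number as a block 457 and 248 windows were called.

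Of 274 results for named windows under alternatives, 253 kept their direction and call, 6 lost and 2 gained the call, and 13 changed sign. NRPD1ΔCTD minus NRPD1FL before AT4G04260 became -1.37 points with 10 reads. When libraries were left out in turn it ranged from -4.76 to 10.6 points before AT5G35200, -1.30 to 4.31 before AT2G14765, -1.11 to 2.68 before AT3G33528, -2.68 to 3.60 before AT4G04260, -2.92 to 3.23 before AT4G08260 and -4.30 to 5.29 before AT3G45680. NRPD1ΔCTD minus nrpd1-3 ranged from -0.0856 to 11.2 before AT4G00163 and -0.181 to 4.02 before AT5G24240, lowest without NRPD1ΔCTD replicate 2. The cause was not tested.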
